A study of Mus musculus with 2 samples.

Results

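The genes described here are Myc and 43 genes whose products build ribosomes, 44 of the 32285 genes listed for each library. They were chosen by symbol from known function, with earlier results of these data known, and all 44 had UMIs in both libraries. UMIs (unique molecular identifiers) are the tags that count captured RNA molecules in scRNA-seq. The 43 were divided by role into RNA polymerase I subunits (2 genes), box C/D snoRNP proteins (3), box H/ACA snoRNP proteins (4), nucleolar proteins with several roles (5), small subunit factors (12) and large subunit factors (17). On the GRCm38 build the 44 genes lay on 17 chromosomes. None had an annotated exon that overlapped, on the same strand, an exon of another protein-coding or long noncoding gene listed for the libraries. Other types of gene were not checked for overlap. Annotated snoRNA genes, 23 in all, lay inside 8 of the 44.

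Ribosome biogenesis starts in the nucleolus, where RNA polymerase I transcribes the rRNA precursor. Small nucleolar RNPs then guide 2'-O-methylation (box C/D) and pseudouridylation (box H/ACA) of that precursor, and separate sets of assembly factors fold, cut and export the small and the large subunit. The transcription factor Myc binds DNA with its partner Max and is known to drive many of these genes in T cells that grow and divide after they meet antigen.

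The cells came from a fully allogeneic transplantation model of acute graft-versus-host disease (aGvHD). The recipients were lethally irradiated BALB/c mice (H-2d), and C57BL/6 (H-2b) donors gave both the T cell-depleted bone marrow and the splenic T cells, which were WT. The labels call the donor T cells naïve, and the study's methods give age-matched young adult female mice in one place and mice of both sexes in another. T cells of donor type, positive for CD45, H2Kb and TCRβ and negative for H2Kd, were sorted from recipient spleens, pooled, and made into 1 library at day +7 and 1 at day +14 on the 10x Genomics system. The name of each library includes "PBS", which the labels do not explain. The sources differ on the number of T cells given, and both libraries carry the same protocol text with a sort on day +7, so the day was taken from the library title. No library of untransplanted or syngeneic T cells was used here, and no allele was altered in either library.

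The 2 libraries held 7355 and 8043 barcodes, of which 7179 and 7794 had 500 to 7500 detected genes and at most 15% mitochondrial UMIs. These kept barcodes held 86745047 UMIs at day +7 and 83808218 at day +14, and 17 barcodes occurred in both libraries. The 44 genes took 0.403% of UMIs at day +7 and 0.455% at day +14. With 1 library per day there was no test and no P value. Intervals in brackets are exact 95% intervals (Poisson for a level, binomial for a share or a ratio) that cover counting error only, not the difference between mice or between library preparations. Day and library preparation cannot be told apart.

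T cells were gated on their own transcripts without use of any of the 44 genes. The CD8 gate (at least 1 UMI of Cd8a or Cd8b1, no Cd4 UMI) held 5890 cells at day +7 and 5947 at day +14. The CD4 gate, defined the other way, held 473 and 707 cells. T cells with a Cd4 UMI and a UMI of Cd8a or Cd8b1, 201 at day +7 and 509 at day +14, were in neither gate. These cells were deep, with medians of 17100 and 13700 UMIs. Cycling cells had at least 10 UMIs of 12 cell cycle genes per 10000 UMIs, from at least 3 of the genes, and non-cycling cells had at most 2 per 10000. This gave 3227 cycling and 1221 non-cycling CD8 T cells at day +7, and 3348 and 1279 at day +14. The 6 T cell receptor and Cd3 genes stood at 5990 CPM in the CD8 gate at day +7 and 7650 CPM at day +14, where CPM is the summed UMIs of a gate per 1000000 UMIs of that gate.

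Myc with Max is known to recognize the E-box CACGTG. The letters CACGTG, which read the same on both strands, were searched for in the RefSeq promoter windows (GRCm38.p6, 250 bases before to 50 bases after the transcription start). A window was matched by symbol for 38 of the 44 genes. Of these, 9 (23.7%) held the motif, compared with 2187 of 27025 genes with any window (8.09%) and with 683 of 5488 genes (12.4%) among those at a mean of at least 10 CPM in the CD8 gate. The 9 sites are printed because they are where the letters of the Myc motif occur among these genes. Each is given as 30 bases from 5′ to 3′ on the strand of the gene, with the motif in capitals.
Nop2: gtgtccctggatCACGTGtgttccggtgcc
Utp4: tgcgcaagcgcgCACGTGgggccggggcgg
Ltv1: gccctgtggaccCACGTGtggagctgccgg
Utp20: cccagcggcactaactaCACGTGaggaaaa
Pes1: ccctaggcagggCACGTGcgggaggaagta
Mybbp1a: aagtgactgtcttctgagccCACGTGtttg
Tsr1: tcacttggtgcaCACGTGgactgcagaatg
Nle1: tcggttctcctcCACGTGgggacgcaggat
Wdr43: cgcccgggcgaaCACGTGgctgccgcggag

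The stretch of Nop2, a methyltransferase of the large subunit rRNA, is chr6:125131811-125131840 on the plus strand, and its motif starts 60 bases before the transcription start. The other 8 motifs lay after the start, from base 3 in Pes1 to base 41 in Mybbp1a. Those on the plus strand are Utp4 at chr8:106893643-106893672, Pes1 at chr11:3963965-3963994, Mybbp1a at chr11:72441347-72441376, Tsr1 at chr11:74898092-74898121 and Wdr43 at chr17:71616220-71616249. Those on the minus strand are Ltv1 at chr10:13193092-13193121, Utp20 at chr10:88826765-88826794 and Nle1 at chr11:82908355-82908384. The letters describe the windows, and no binding was measured.

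Myc was higher at day +14 than at day +7 in CD8 T cells. It was at 12.8 CPM [12, 13.7] at day +7 (880 UMIs) and 23.3 CPM [22.1, 24.5] at day +14 (1526 UMIs), a log2 ratio of 0.86 [0.74, 0.98]. The 2 intervals did not overlap. The median log2 ratio of all 6830 genes compared in this gate was 0.18 (with 1 CPM added to each level), so the ratio of Myc lay 0.68 above that of the median gene. Scaling to the median ratio of genes with at least 100 UMIs on each side lowered all log2 ratios in this gate by 0.22 and left Myc at 0.65. In the CD4 gate Myc was at 15.7 CPM [12.3, 19.6] at day +7 and 15.2 [12, 19.0] at day +14 (76 and 77 UMIs), with a log2 ratio of -0.046 [-0.52, 0.43]. Within the CD4 gate the intervals of the Myc ratio also included 0 in cycling (-0.26 [-0.94, 0.42]) and non-cycling cells (-0.57 [-1.70, 0.50]). CD4 and CD8 T cells differed at day +14, where the log2 ratio of CD4 over CD8 was -0.62 [-0.97, -0.29], and at day +7 the interval of that ratio included 0 (0.29 [-0.068, 0.63]).

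The share of CD8 T cells with a Myc UMI was 11.2% at day +7 and 17.1% at day +14. To remove the effect of depth, each cell was thinned to 4000 UMIs, without the 102 shallower cells of day +7 and the 483 of day +14. The share was then 4.08% [3.58, 4.62] at day +7 and 7.61% [6.92, 8.35] at day +14. Granulocytes in the same libraries gave 2.38% [0.060, 12.6] (1 of 42 cells) and 1.79% [0.045, 9.55] (1 of 56), at median depths before thinning of 14785 and 8187 UMIs against 9238 and 8575 in the CD8 gate. Free RNA can give UMIs of this kind in any cell. The CD8 shares at both days lay within the wide granulocyte intervals, so the shares alone do not separate Myc expression from that background at this depth.

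The ribosome biogenesis genes together were also higher at day +14 in CD8 T cells and were close to level in the CD4 gate as a whole, where cycling and non-cycling cells had opposite signs. Their summed level (the 43 genes without Myc) in the CD8 gate was 3607 CPM [3593, 3622] at day +7 and 4526 [4510, 4543] at day +14, a log2 ratio of 0.33 [0.32, 0.33]. That is 0.14 above the median gene, and 0.11 after median-ratio scaling. In the CD4 gate the sum was 4178 CPM [4121, 4236] at day +7 and 4120 [4064, 4176] at day +14, a log2 ratio of -0.020 [-0.048, 0.0076], which lay 0.18 below the median gene of that gate. Within that gate the sum was 4650 CPM [4568, 4732] at day +7 and 5052 [4965, 5140] at day +14 in cycling cells (log2 ratio 0.12 [0.084, 0.16]), and 3687 CPM [3585, 3791] and 3225 [3128, 3324] in non-cycling cells (-0.19 [-0.25, -0.13]). These ratios lay 0.0048 above and 0.39 below the median gene of each. Cycling cells were 186 of the 473 CD4 T cells at day +7 and 195 of 707 at day +14, whereas they were 3227 of 5890 and 3348 of 5947 in the CD8 gate. The 201 and 509 T cells with UMIs of both Cd4 and a Cd8 gene, which neither gate holds, were at 4267 CPM [4202, 4332] and 5162 [5114, 5210]. The effect of their absence on the CD4 values was not tested. The sum over the whole gate was higher in CD4 than in CD8 T cells at day +7 (log2 ratio 0.21 [0.19, 0.23]) and lower at day +14 (-0.14 [-0.16, -0.12]). At day +14 this order did not hold within the cycling states. Cycling CD8 T cells were at 4930 CPM [4910, 4949], below cycling CD4 T cells. Non-cycling CD8 T cells were at 3112 CPM [3072, 3153], and this interval overlapped that of non-cycling CD4 T cells. Npm1 and Ncl held 46.4% of the UMIs of the sum in the CD8 gate at day +7 and 47.1% at day +14, and without them the log2 ratio of the CD8 gate was 0.31.

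Other transcripts moved with the day. In the CD8 gate the rRNA-associated genes Gm42418, Gm26917 and Lars2 were together at 18700 CPM at day +7 and 6070 at day +14, and leaving them out of the total with ribosomal protein and mitochondrial genes gave a log2 ratio of 0.31 for the sum. The 8 granulocyte markers together were at 19.2 CPM at day +7 and 49.1 at day +14, all 8 with UMIs, and the 6 B cell markers at 23.3 and 3.79 CPM (Cd79b alone 21.9 and 2.87). The 8 erythroid markers were at 5.93 and 3.30 CPM, and the 8 macrophage markers together at 25.5 and 31.3 CPM. Single macrophage markers moved both ways. Lyz2 was at 1.28 and 9.95 CPM, whereas Cd68 was at 15.2 and 11.1 CPM and C1qa at 3.88 and 3.21 CPM. The NK cell markers Ncr1 and Klrb1c were together at 7.61 and 0.672 CPM. Their part in the day ratios was not tested. Cells of the CD4 gate were also shallower at day +14 than at day +7 (median 5324 against 8295 UMIs). Thinned to 4000 UMIs, the CD4 sum had a log2 ratio of 0.031 [-0.018, 0.080]. Thinning left out 13 of 473 CD4 T cells at day +7 and 200 of 707 at day +14, of which 11 and 103 were non-cycling. The part of these omitted cells in the change of the ratio was not tested.

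**Figure D1:**
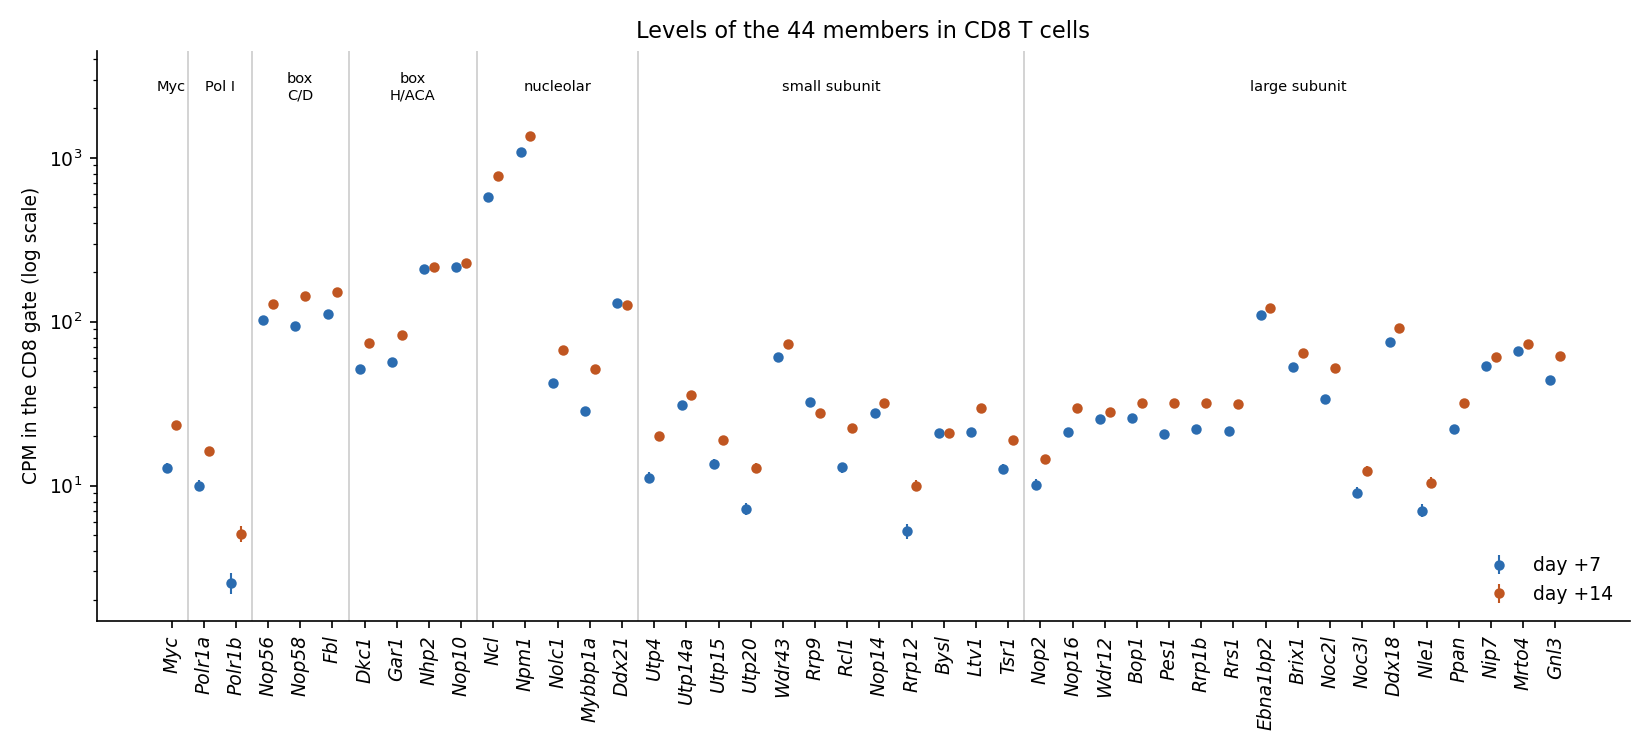
Level of each of the 44 genes in the CD8 gate (CPM, log scale) at day +7 (blue) and day +14 (orange), grouped by role, with exact 95% Poisson intervals. Under this scaling to the total the orange point is higher for nearly all genes, and Rrp9 and Ddx21 are the 2 whose point is lower.

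By gene, a difference was called where the log2 ratio reached 0.5 in size after adding 1 CPM to both levels, among genes at a mean of at least 10 CPM. Of the 43 genes, 39 had that level in the CD8 gate, and Polr1b, Utp20, Rrp12 and Nle1 lay below it. At day +14, 12 of the 39 were called higher and 0 lower, compared with 13.1% of all genes called higher and 3.32% called lower. The median of the 39 was 0.45. Under median-ratio scaling 3 of the 39 (Mybbp1a, Utp4 and Rcl1) were called higher, beside 4.60% of all genes, so most calls of this size depended on scaling to the total. Because that scaling lowers each log2 ratio by 0.22, a CD8 day ratio given below that lies between 0 and 0.21 is below 0 under it, and one already below 0 is lower still.

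RNA polymerase I makes the precursor that the other factors process. Polr1a, its largest subunit, was at 10.0 CPM at day +7 and 16.2 at day +14 in the CD8 gate, a log2 ratio of 0.69 [0.55, 0.83]. Polr1b, the second largest subunit, was at 2.54 and 5.08 CPM, a log2 ratio of 1.00 [0.74, 1.28]. Both subunits were higher at day +14 with intervals well above 0, and their sum lay 0.58 above the median gene. Other subunits, outside this gene set, did not share this. Polr1d was at 476 and 386 CPM (-0.30 [-0.33, -0.28]). The intervals of Polr1c (-0.015 [-0.11, 0.078]) and Polr1e (0.12 [-0.0028, 0.25]) included 0. Polr1a and Polr1b thus do not stand for the whole enzyme.

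The box C/D proteins Nop56, Nop58 and fibrillarin (Fbl, the methyltransferase) form the core of the particles that methylate rRNA. Nop58 was at 93.7 CPM at day +7 and 143 at day +14 in the CD8 gate (log2 ratio 0.61 [0.57, 0.66]). Fbl was at 111 and 151 CPM (0.45 [0.41, 0.50]), and Nop56 at 102 and 129 CPM (0.34 [0.30, 0.39]). All 3 were higher at day +14 and above the median gene, and Nop58 alone of them was called. Nop56 holds 5 annotated snoRNA genes within its bounds, and Nop58 holds 4.

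The box H/ACA proteins split into 2 pairs. Dkc1, the pseudouridine synthase, was at 51.3 CPM at day +7 and 74.3 at day +14 (log2 ratio 0.53 [0.47, 0.60]), and Gar1 at 56.7 and 83.4 CPM (0.56 [0.50, 0.62]). The small core proteins were almost level, with Nhp2 at 211 and 216 CPM (0.030 [-0.0033, 0.064]) and Nop10 at 215 and 227 CPM (0.078 [0.045, 0.11]). Dkc1 and Gar1 were called higher, and Nhp2 and Nop10 lay below the median gene although the 4 proteins work in 1 particle.

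Of the nucleolar proteins with several roles, Mybbp1a, a Myb-binding protein that acts on rRNA synthesis, had the highest log2 ratio of the 43 with 1 CPM added. It was at 28.7 CPM at day +7 and 51.5 at day +14, a log2 ratio of 0.84 [0.76, 0.92]. Nolc1, a chaperone of snoRNPs, was at 42.1 and 67.2 CPM (0.67 [0.60, 0.74]). Nucleolin (Ncl) was at 579 and 774 CPM (0.42 [0.40, 0.44]), and nucleophosmin (Npm1), a chaperone of ribosomal proteins, at 1090 and 1360 CPM (0.31 [0.30, 0.33]). The RNA helicase Ddx21 was at 130 and 126 CPM (-0.047 [-0.090, -0.0033]), so that it did not share the direction of the other 4.

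Small subunit factors ranged most widely. Utp4, of the complex that joins the precursor first, was at 11.2 CPM at day +7 and 20.2 at day +14 (log2 ratio 0.84 [0.72, 0.97]). Rcl1, a nucleolar protein needed for early cleavage of the precursor, was at 12.9 and 22.4 CPM (0.80 [0.68, 0.93]), and Rrp12, a factor of subunit export, at 5.25 and 9.98 CPM (0.93 [0.74, 1.12]). These genes stood at the top of the range. At the bottom, Rrp9, a protein of the U3 snoRNP, was at 32.5 CPM at day +7 and 27.6 at day +14 (-0.24 [-0.33, -0.15]), and Bysl, a factor of late small subunit assembly, at 20.8 and 21.0 CPM (0.016 [-0.092, 0.12]). The other 7 ran from 7.20 CPM (Utp20) to 61.3 CPM (Wdr43) at day +7 and from 12.8 to 72.9 CPM at day +14, with log2 ratios from 0.21 for Utp14a and Nop14 to 0.83 for Utp20. Rrp9 and Ddx21 were the only 2 of the 39 with a ratio below 0 under scaling to the total.

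Among the large subunit factors, 16 of 16 at the minimum level had a ratio above 0, and 12 lay above the median gene (0.18). Called higher were 3 (18.8%), beside 13.1% of all genes. Pes1, which forms a complex with Bop1 and Wdr12, was at 20.7 CPM at day +7 and 32.0 at day +14 (log2 ratio 0.63 [0.53, 0.72]). Its partners showed smaller ratios, with Bop1 at 25.7 and 32.1 CPM (0.32 [0.23, 0.41]) and Wdr12 at 25.5 and 28.2 CPM (0.14 [0.046, 0.24]). The interval of Pes1 lay above those of both partners, which overlapped. Noc2l, of a complex that moves large subunit precursors, was at 33.9 and 52.3 CPM (0.63 [0.55, 0.70]), and Rrs1, a 5S particle factor, at 21.4 and 31.4 CPM (0.56 [0.46, 0.65]). The other 12 large subunit factors ran from 7.05 CPM (Nle1) to 110 CPM (Ebna1bp2) at day +7 and from 10.4 to 122 CPM at day +14, with log2 ratios from 0.15 for Ebna1bp2 and Mrto4 up to 0.57 for Nle1, which lay under the minimum level.

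The 9 genes with an E-box had a median CD8 day ratio (log2, 1 CPM added) of 0.55 (range 0.25 to 0.82), compared with 0.40 (range -0.23 to 0.78) for the 29 matched genes without it. This is a description of overlapping ranges. In cycling over non-cycling cells at day +7 the order was the other way, with medians of 0.28 and 0.39.

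By gene, the CD4 gate as a whole was split. Of 41 genes at the minimum level, 0 were called higher and 2 lower, compared with 18.6% of all genes called higher and 3.51% called lower, and the median was 0.0091, with 21 of the 41 above 0. In cycling CD4 T cells 29 of 42 genes had a ratio above 0 (median 0.14, all genes 0.12), and 4 were called higher and 3 lower, beside 14.5% and 5.58% of all genes. In non-cycling CD4 T cells 27 of 40 had a ratio below 0 (median -0.083, all genes 0.20), and 0 were called higher and 7 lower, beside 28.7% and 6.43% of all genes. The 7 were Nop14, Tsr1, Nop2, Wdr12, Bop1, Ebna1bp2 and Mrto4, and some rest on few UMIs. The intervals of Nop2 (-0.57 [-1.7, 0.50], from 20 and 13 UMIs) and Bop1 (-0.54 [-1.43, 0.33], from 30 and 20 UMIs) included 0. Tsr1 had 34 and 13 UMIs. Ddx21 was at 172 CPM at day +7 and 114 at day +14 (log2 ratio -0.60 [-0.75, -0.44]), and Rrp9 at 36.3 and 25.2 CPM (-0.52 [-0.86, -0.19]). These were the 2 genes called lower in the whole gate. Across the 39 genes compared in both gates, the CD4 ratio lay below the CD8 ratio in 38, and Brix1, a large subunit factor, was the exception (0.36 [0.11, 0.62] in CD4, 0.28 [0.21, 0.34] in CD8). Both ratios come from the same 2 libraries, and the difference between the gates was not tested.

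The gap between the gates was largest for Tsr1, a late factor of the small subunit. It was at 12.7 CPM at day +7 and 19.1 at day +14 in the CD8 gate (log2 ratio 0.59 [0.46, 0.72]) and, in the CD4 gate, at 17.5 and 13.6 CPM (-0.37 [-0.85, 0.11]). Noc2l was at 44.8 and 44 CPM in the CD4 gate (-0.025 [-0.30, 0.25]), and its partner Noc3l was at 9.05 and 12.2 CPM in the CD8 gate and 12.6 and 10.5 CPM in the CD4 gate (-0.27 [-0.83, 0.29]). The CD4 intervals of these 3 included 0, so the CD4 gate did not resolve their direction at this depth.

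**Figure D2:**
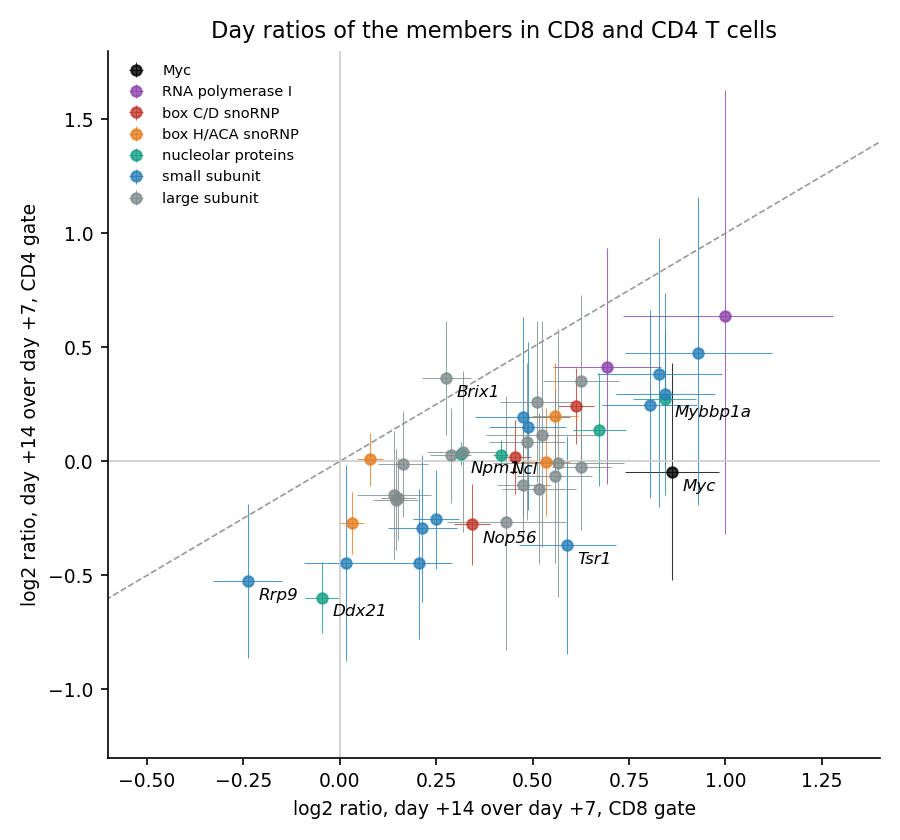
Log2 ratio of day +14 over day +7 for each of the 44 genes in the CD8 gate (x axis) and the CD4 gate (y axis), colored by role, with exact 95% intervals and a dashed line of equal ratios. Nearly all points lie below the line, and Brix1 lies above it.

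Cycling was examined next, since growing cells need new ribosomes before they divide. Cycling CD8 T cells had more of the ribosome biogenesis transcripts than non-cycling CD8 T cells in the same library, which compares cells prepared together. The sum was 2810 CPM [2774, 2846] in non-cycling and 3934 CPM [3916, 3952] in cycling cells at day +7, a log2 ratio of 0.49 [0.47, 0.51]. At day +14 it was 3112 CPM [3072, 3153] and 4930 CPM [4910, 4949], a log2 ratio of 0.66 [0.64, 0.68]. Median-ratio scaling changed these to 0.48 and 0.69. Cycling cells were deeper (median 13090 against 6450 UMIs at day +7, 12487 against 5382 at day +14). With cells thinned to 4000 UMIs the ratios were 0.34 [0.31, 0.37] and 0.49 [0.46, 0.52]. Thinning left out the shallower cells, which were more often non-cycling. At day +7 they were 15 of 3227 cycling and 39 of 1221 non-cycling cells. At day +14 they were 57 of 3348 and 252 of 1279. Per cell, without scaling, cycling cells held 59.3 and 72.0 UMIs of the 43 genes, and non-cycling cells 19.5 and 17.9.

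At day +7, 12 of the 36 genes at the minimum level were called higher in cycling cells and 0 lower, compared with 19.8% of all genes called higher and 11.6% called lower. At day +14, 23 of 40 were called higher and 0 lower, compared with 19.8% and 14.6% of all genes. The medians were 0.37 at day +7 and 0.63 at day +14, compared with 0.060 and 0.018 for all genes. The ratio was above 0 for 32 of 36 genes at day +7 and for 40 of 40 at day +14. Of the 36 genes compared at both days, 30 had the higher ratio at day +14 (Pearson r = 0.79, Spearman rho = 0.77, across 36 genes that share the 2 libraries).

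The box C/D core led this comparison. At day +7, Nop58 was at 48.8 CPM in non-cycling and 110 CPM in cycling CD8 T cells (log2 ratio 1.17 [1.03, 1.32]), and Nop56 at 56.2 and 118 CPM (1.07 [0.93, 1.20]). At day +14 the same genes had ratios of 1.04 [0.92, 1.17] and 0.99 [0.86, 1.12]. Fbl was at 79.8 and 125 CPM at day +7 (0.64 [0.53, 0.76]), so all 3 were called higher, and all 3 were called at day +14 as well. The ratios of Nop56 and Nop58 differed between the days by less than their intervals.

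Of the box H/ACA proteins, Nhp2 was at 137 CPM in non-cycling and 236 CPM in cycling cells at day +7 (log2 ratio 0.79 [0.70, 0.88]), and Dkc1 and Gar1 were called as well. Nop10 was at 213 and 217 CPM (0.024 [-0.048, 0.097]), and at day +14 at 215 and 234 CPM (0.12 [0.044, 0.20]). The smallest protein of the particle thus hardly differed with cycling at either day. Among the nucleolar proteins, Nolc1 was at 22.5 and 48.7 CPM at day +7 (1.12 [0.90, 1.34]) and at 34.2 and 75.5 CPM at day +14 (1.14 [0.96, 1.33]). Ncl was at 374 and 661 CPM at day +7 (0.82 [0.77, 0.87]), and Npm1 at 900 and 1190 CPM (0.40 [0.37, 0.44]). Ddx21 was at 132 CPM in both at day +7 (-0.0018 [-0.094, 0.091]) and at 106 and 132 CPM at day +14 (0.32 [0.21, 0.43]).

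Of the small subunit factors, 0 of the 10 at the minimum level were called at day +7, and 4 of 11 (Utp15, Utp20, Bysl and Ltv1) were called higher at day +14. Among all genes, 19.8% were called higher at each day. Rrp9 was at 35.6 CPM in non-cycling and 30.8 CPM in cycling cells at day +7 (log2 ratio -0.21 [-0.39, -0.027]) and at 21.5 and 28.9 CPM at day +14 (0.43 [0.19, 0.67]). Utp14a, of the small subunit processome, was at 35.5 and 30.7 CPM at day +7 (-0.21 [-0.39, -0.027]) and at 30.1 and 37.8 CPM at day +14 (0.33 [0.13, 0.54]). For both genes the sign of the ratio changed between the days, with intervals that excluded 0 at each. Of the large subunit factors, 4 of 14 were called at day +7 and 9 of 16 at day +14, and Pes1 was at 21.5 and 20.7 CPM at day +7 (-0.056 [-0.29, 0.18]) and 27.3 and 33.1 CPM at day +14 (0.28 [0.066, 0.50]).

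**Figure D3:**
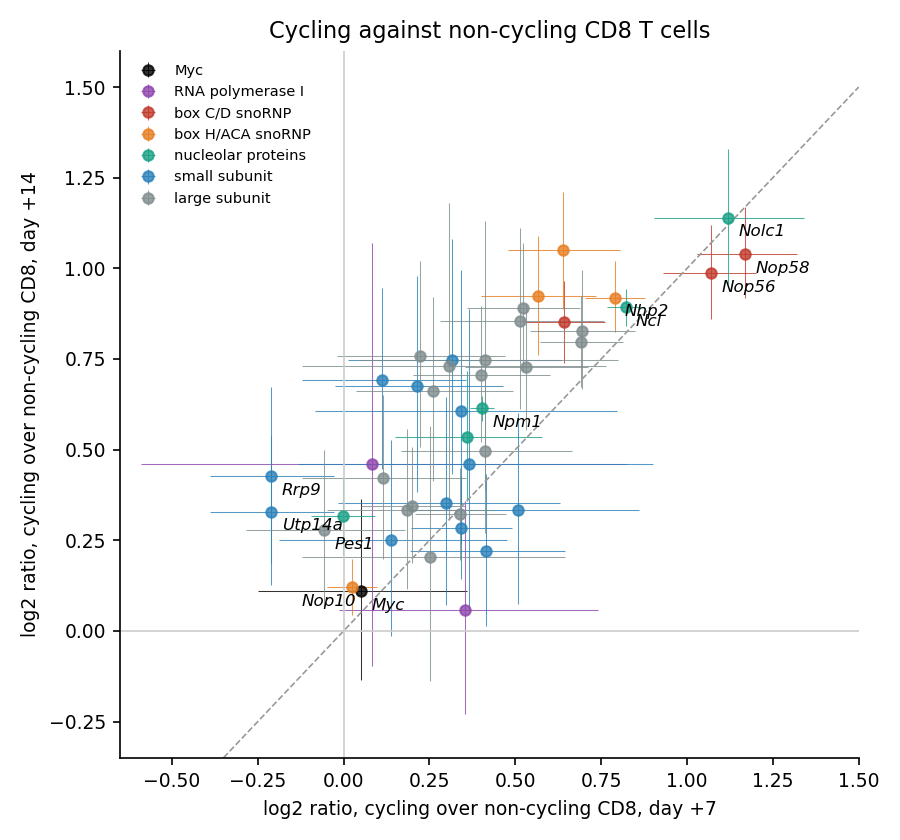
Log2 ratio of cycling over non-cycling CD8 T cells for each of the 44 genes at day +7 (x axis) and day +14 (y axis), colored by role, with exact 95% intervals and a dashed line of equal ratios. Nop58, Nop56 and Nolc1 stand at the upper right, and most points lie above the line.

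The day ratio was then examined within cycling and non-cycling CD8 T cells separately. In cycling cells the sum had a log2 ratio of 0.33 [0.32, 0.33], and 16 of 40 genes were called higher and 0 lower, compared with 10.9% and 3.28% of all genes. In non-cycling cells the sum had a log2 ratio of 0.15 [0.12, 0.17], and 6 of 37 genes were called higher and 1 lower, compared with 21.3% and 4.32% of all genes. The non-cycling ratio lay 0.041 below the median gene and turned to -0.017 [-0.044, 0.0088] under median-ratio scaling, so the sign of this ratio depends on the scaling. The cycling ratio lay 0.16 above the median gene. Gene by gene, the median in non-cycling cells was 0.22 against 0.19 for all genes, and 19 of the 37 lay above the latter. In cycling cells the median was 0.43 against 0.16 for all genes, and 33 of the 40 lay above the latter. The 6 genes called higher in non-cycling cells were Polr1a, Nop58, Nolc1, Mybbp1a, Utp4 and Rcl1. The gene called lower was Rrp9, at 35.6 CPM at day +7 and 21.5 at day +14 (-0.73 [-1.01, -0.44]).

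In CPM, Myc did not follow the cycling gates as the ribosome biogenesis genes did. At day +7 it was at 12.7 CPM [10.4, 15.3] in non-cycling and 13.1 CPM [12.1, 14.2] in cycling CD8 T cells (log2 ratio 0.050 [-0.25, 0.36]). At day +14 it was at 21.0 CPM [17.8, 24.6] and 22.7 CPM [21.3, 24.0] (0.11 [-0.13, 0.36]). The intervals of both ratios included 0. Per cell, without scaling, the deeper cycling cells held 0.197 Myc UMIs at day +7 and 0.331 at day +14, and non-cycling cells 0.0876 and 0.12. The day ratio of Myc was 0.79 [0.65, 0.93] in cycling and 0.73 [0.37, 1.10] in non-cycling cells, 0.63 and 0.54 above the median gene.

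**Figure D4:**
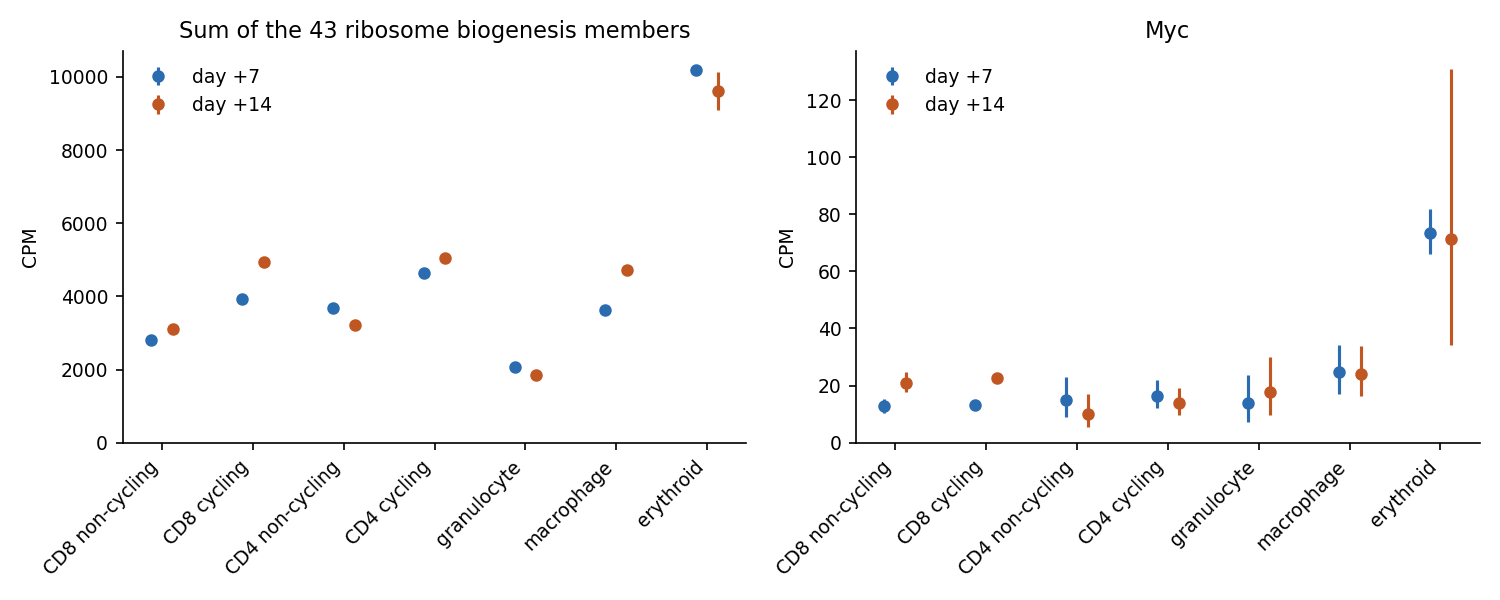
Summed level of the 43 ribosome biogenesis genes (left) and level of Myc (right), both in CPM, in 7 gates at day +7 (blue) and day +14 (orange), with exact 95% Poisson intervals. The sum is higher in cycling than in non-cycling T cells at both days, and the erythroid gate lies above all others in both panels.

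CD8 T cells were next divided more finely by the rate of the 12 cell cycle genes, a division chosen after the first values were seen. The summed level was not highest where the rate was highest. It was 2809 CPM under 2 UMIs per 10000 and 4830 CPM [4798, 4862] at 20 to 40 at day +7, and it was 3370 CPM [3346, 3395] at 40 or more. At day +14 the corresponding levels were 3112, 5842 [5806, 5878] and 4267 CPM [4241, 4294]. At both days the sum thus had its highest level at 20 to 40.

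Myc had another profile. At day +7 its level ran from 10.6 to 14.8 CPM over the 6 rates with overlapping neighbors. At day +14 it was at 21.0 CPM [17.8, 24.6] under 2 per 10000, 39.1 CPM [33.3, 45.6] at 5 to 10, 33.5 CPM [29.6, 37.7] at 10 to 20 and 18.3 CPM [16.7, 20.1] at 40 or more. The levels at 5 to 10 and at 10 to 20 had overlapping intervals, and both lay above the others. The day ratio of Myc was 1.6 [1.19, 2.02] at 5 to 10 (from 71 and 164 UMIs), 1.42 [1.09, 1.76] at 10 to 20 and 0.62 [0.39, 0.84] at 40 or more. The sum of the 43 had its highest day ratio at 10 to 20 (0.51 [0.49, 0.53]), and 0.15 [0.12, 0.17] under 2.

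**Figure D5:**
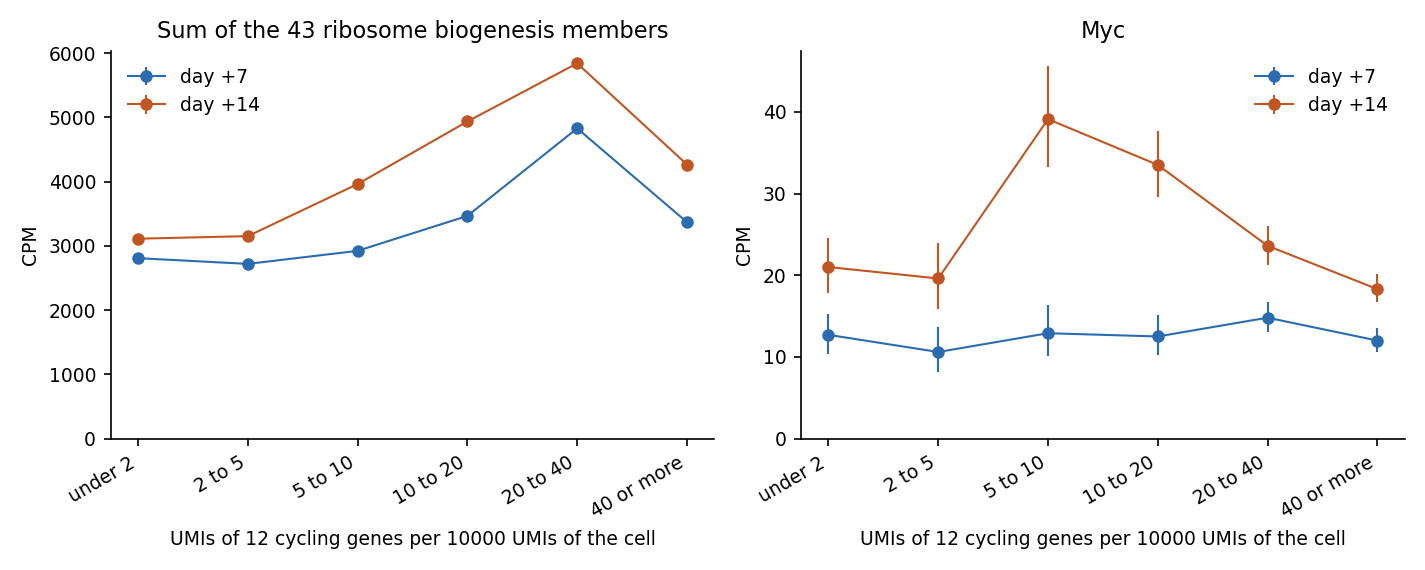
Summed level of the 43 ribosome biogenesis genes (left) and level of Myc (right) in CD8 T cells divided by UMIs of 12 cell cycle genes per 10000 UMIs, at day +7 (blue) and day +14 (orange), in CPM with exact 95% Poisson intervals. The sum is highest at 20 to 40 at both days, whereas Myc is highest at 5 to 10 at day +14.

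Cycling CD8 T cells were also divided, again after the first values were seen, by whether Rrm2, Tyms and Pclaf (S phase) or the mitotic genes held more of their cell cycle UMIs. The sum was 4464 CPM [4422, 4507] in S-weighted and 3788 CPM [3768, 3808] in mitosis-weighted cells at day +7, and 5976 CPM [5925, 6027] and 4694 CPM [4673, 4716] at day +14. S-weighted cells had the higher level at both days, at median depths of 14122 and 12789.5 UMIs at day +7 and 12561 and 12543 at day +14. Myc was at 15.4 CPM [13.1, 18.1] and 12.5 CPM [11.4, 13.6] at day +7, and at 26.4 CPM [23.1, 30] and 21.8 CPM [20.3, 23.3] at day +14.

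Single CD8 T cells with a Myc UMI had more UMIs of the other genes. After thinning to 4000 UMIs, cells without a Myc UMI held a mean of 12.2 UMIs of the 43 genes at day +7 (SD between cells 6.99, 5552 cells), and cells with at least 1 held 15.9 (SD 11.8, 236 cells), a log2 ratio of 0.38 [0.33, 0.43]. At day +14 the means were 15 (SD 8.75, 5048 cells) and 19.0 (SD 10.4, 416 cells), a log2 ratio of 0.34 [0.31, 0.38]. The means differed by less than 1 SD between cells, and cells of a library are not replicates. The order was the same within cycling cells (0.40 and 0.24) and within non-cycling cells (0.34 and 0.56).

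The highest levels were in cells that are not T cells. The erythroid gate (a UMI of at least 4 of 8 erythroid markers) held 125 cells at day +7 and 15 at day +14. At day +7 the sum there was 10190 CPM [10100, 10290], compared with 3934 CPM in cycling CD8 T cells, a log2 ratio of 1.37 [1.36, 1.39], and Myc was at 73.6 CPM [66.1, 81.8], a log2 ratio of 2.49 [2.30, 2.68]. All 43 genes were called higher and 0 lower, compared with 25.9% and 23.3% of all genes. Gnl3 (nucleostemin, a GTPase of the large subunit) was at 288 CPM in erythroid and 48.8 CPM in cycling CD8 T cells, and Nolc1 at 224 and 48.7 CPM. These cells were deep (median 37642 UMIs) and still held 1670 CPM of the 6 T cell genes, compared with 5600 CPM in cycling CD8 T cells, and doublets with T cells were not removed. With 10 Myc UMIs at day +14, the erythroid day ratio of Myc (-0.043 [-1.12, 0.85]) was not resolved at this depth. Because erythroid cells were 1.74% of kept barcodes at day +7 and 0.192% at day +14, a sum over all kept barcodes, such as the share of UMIs in the opening, also reflects the number of these cells, and no day ratio was taken from it.

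Other lists chosen by function, also with earlier results of these data known, give the setting of these genes. Of 86 further ribosome biogenesis factors, 82 were compared in the CD8 gate by day. Of these 6 (7.32%) were called higher and 0 lower, beside 13.1% and 3.32% of all genes, with a median of 0.24 against 0.18 for all genes. Mdn1, an ATPase that remodels the large subunit, was highest, at 9.67 CPM at day +7 and 19.7 at day +14, and Ngdn was lowest, at 81.5 and 62.9 CPM. The summed level of the 86 had a log2 ratio of 0.10 [0.096, 0.11] in the CD8 gate, which lies 0.079 below the median gene, whereas the 43 lay above it. In cycling over non-cycling CD8 T cells, 10 of 78 (12.8%) were called higher at day +7 and 20 of 82 (24.4%) at day +14, beside 19.8% of all genes at each day, and 0 were called lower. The RNA exosome, which trims rRNA precursors, had 3 of 13 genes called higher by day, beside 13.1% of all genes, and 7 of 13 by cycling at day +7, beside 19.8%. Exosc8, a core subunit, was highest in cycling over non-cycling cells, with log2 ratios of 1.44 and 1.46 (1 CPM added).

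Of the 11 partners and antagonists of Myc, 9 were compared in the CD8 gate, and 2 were called higher by day, a count that in so short a list is read beside 13.1% of all genes. Max, the partner, was at 38.3 CPM at day +7 and 53.1 at day +14. Mga and Mxi1, which compete for Max, were the 2 called, Mxi1 at 12 and 22.9 CPM and Mga at 15.8 and 27.1 CPM. The antagonists Mxd3 and Mxd4 lay at opposite ends by cycling at day +7, with Mxd3 at 1.06 CPM in non-cycling and 70.2 CPM in cycling CD8 T cells (log2 ratio 6.04 [5.12, 7.17]) and Mxd4 at 83.9 and 23.6 CPM (-1.83 [-1.97, -1.69]). Mycn and Mycl were at 0.102 and 0.0583 CPM at day +7.

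Of 20 well-known Myc targets outside ribosome biogenesis, 5 were called higher by day in the CD8 gate (Odc1, Srm, Cad, Apex1 and Tfrc) and 0 lower, beside 13.1% and 3.32% of all genes, with a median of 0.14, under that of all genes. Odc1, the first enzyme of polyamine synthesis, was at 74.5 CPM at day +7 and 156 at day +14, and Nme2, a nucleoside diphosphate kinase, was at 1370 and 1090 CPM. By cycling, 15 of 20 were called higher at day +7 and 16 of 20 at day +14, beside 19.8% of all genes at each day, and 0 were called lower. The medians by cycling were 0.91 and 1.02.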

How the data were processed

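Splenic donor T cells at day +7 and day +14 gave 1 library each. The authors made the deposited UMI counts per gene and cell with Cell Ranger for barcodes that passed its cell detection, without normalization, and the submitters' processing notes name version 6.1.2 and the build mm10 (GRCm38). The gene and barcode lists hold no measurement.

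Barcodes with 500 to 7500 genes and at most 15% mitochondrial UMIs were kept. Scrublet (scanpy 1.11.5, Python 3.11.15) marked 0 cells in each library, so it did not work and doublets remain. Gates used marker genes only. The T gate needed 2 UMIs over 2 of 6 T cell genes. Erythroid (4 of 8 markers), granulocyte (5 of 8), macrophage (4 of 8) and B (3 of 6) barcodes were left out of the T gates.

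UMIs were summed per gate. Ratios carry exact conditional binomial intervals (scipy 1.17.1). Ratios of single genes in calls, medians and ranks had 1 CPM added. Calculations were tested on simulated data. The depth of a gate sets each interval. The members and lists were chosen with earlier results of these data known. Named genes were Myc, the 5 with the most UMIs, the 5 highest and 5 lowest by day and by cycling at day +7 in the CD8 gates, and the 3 with the largest gap between CD4 and CD8. Other genes were named to complete complexes or after their values were seen. Alternatives were scaling, total, thinning, gate limits, mitochondrial limit, Scrublet scores, added CPM and minimum level. Positions and snoRNAs come from GENCODE M21.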

Additional observations from a re-analysis of the deposited data

Results flagged for a closer look

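For Nop56 and Utp14a the day ratio had opposite signs in CD8 and CD4 T cells, with intervals that excluded 0 on both sides, and the difference between the gates was not tested. Nop56, a core box C/D protein, had a log2 ratio of day +14 over day +7 of 0.343 [0.297, 0.389] in the CD8 gate and -0.276 [-0.454, -0.099] in the CD4 gate. Utp14a, of the small subunit processome, had 0.206 [0.12, 0.291] in the CD8 gate and -0.448 [-0.779, -0.12] in the CD4 gate. Within cycling and within non-cycling CD4 T cells the intervals of both genes included 0. For Nop56 they were -0.115 [-0.334, 0.103] and -0.406 [-0.83, 0.0123], and for Utp14a -0.375 [-0.845, 0.0888] and -0.0144 [-0.63, 0.6]. In non-cycling CD8 T cells Utp14a was at -0.236 [-0.493, 0.0196]. Median-ratio scaling lowers each CD8 ratio by 0.215, which is more than the CD8 ratio of Utp14a and less than that of Nop56.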

How the results depend on the processing

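All values are log2 ratios unless named as counts. The day ratio of the sum stayed above 0 in the CD8 gate (0.11 to 0.33) and in cycling CD8 T cells (0.14 to 0.33) under the alternatives run, and the cycling ratio did at both days (0.34 to 1.61 and 0.49 to 2.01). For the day ratio of the sum in the CD8, CD4, cycling CD8 and non-cycling CD8 gates in turn, median-ratio scaling gave 0.112, -0.112, 0.137 and -0.0174, and mean UMIs per cell gave 0.247, -0.536, 0.28 and -0.125, so the non-cycling sign turned under both. A total without ribosomal protein, mitochondrial and rRNA-associated genes gave 0.305, -0.0666, 0.308 and 0.106. The mean of single-cell CPM gave 0.271, -0.104 and 0.117 in the CD8, CD4 and non-cycling CD8 gates. Without Npm1 and Ncl the CD8, CD4 and cycling CD8 values were 0.307, -0.0667 and 0.31, and thinned to 4000 UMIs the CD8 and CD4 values were 0.306 and 0.031. For cycling over non-cycling at day +7 and day +14, the total without those genes gave 0.378 and 0.58, single-cell CPM 0.343 and 0.546, UMIs per cell 1.61 and 2.01, the sum without Npm1 and Ncl 0.439 and 0.623, thinning 0.337 and 0.49, leaving out the highest Scrublet scores 0.511 and 0.693, and median-ratio scaling 0.694 at day +14. Stricter cycling gates (20 and 1 per 10000) gave 0.459 and 0.714, day ratios of the sum of 0.29 in cycling and 0.0345 in non-cycling cells, and of Myc of 0.632 and 0.335, the latter with an interval that included 0. Myc by day was 0.646 in the CD8 gate and 0.602 in cycling CD8 under median-ratio scaling, and 1.01 and 1.14 after thinning.

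Each count below is followed in brackets by the share of all genes called under the same setting. The count of genes called higher by day in the CD8 gate was 12 of 39 (13.1%). It was 4 of 18 at a minimum of 50 CPM (6.83%) and 3 of 39 under median-ratio scaling (4.6%). In cycling CD8 it was 16 of 40 (10.9%), and those settings gave 4 of 18 (5.55%) and 4 of 40 (4.18%). In non-cycling CD8 the minimum of 50 CPM left 1 of 11 higher (11.9%) and 0 lower (5.25%). Median-ratio scaling gave 2 of 37 lower there (7.77%). In the CD4 gate 1 of 43 was called higher with no minimum (22.9%). The 2 of 41 lower (3.51%) became 1 of 41 with 5 CPM added (3.01%) and 1 of 18 at 50 CPM (4.15%). Median-ratio scaling gave 4 of 41 (4.88%). By cycling at day +14, 13 of 18 were called higher at 50 CPM (24.5%). Fewer genes reach 50 CPM. Other causes were not tested. A CD4 gate without cells with a Foxp3 UMI, chosen after seeing the data, gave -0.0074. No paired analysis was possible because each day has 1 library.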
